A study of Mus musculus with 6 samples.

Results

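The response to KLA in mouse macrophages given siRNA against Phf2 was read from 2 libraries of a series of 6, the library labelled siPhf2 KLA and the library labelled siPhf2 vehicle. They were chosen by their labels alone. The series sequenced polyA RNA of thioglycollate-elicited peritoneal macrophages from female C57BL/6 mice, with 1 library for each of 3 siRNAs (against Phf2, against Smyd5, and control) and 2 agents. Cells of every library had siRNA for 48 h; KLA libraries then had KLA at 100 ng/ml for 4 h, and vehicle libraries had vehicle. The labels spell KLA out as Kdo2-LipidA and file it under LPS. No group has a second library, the labels do not say whether the 6 came from separate mice or cultures, and the siRNA sequences were not used here. All differences below therefore compare 1 library with 1 other, and their intervals cover counting error only.

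Kdo2-lipid A is the membrane anchor of bacterial lipopolysaccharide and a selective agonist of the receptor TLR4. TLR4 signals through the adaptor MyD88 to NF-kB and MAP kinases, which switch on cytokine genes. It also signals through the adaptor TRIF to IRF3, which switches on interferon beta; secreted interferon then acts back through its receptor on a second set of antiviral genes. PHF2 is a histone demethylase of the Jumonji family with a PHD finger.

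The pair was shallow. It held 420142 reads on transcripts with KLA and 577057 with vehicle, and the ribosomal RNA precursor Rn45s took 71.6% and 66.7% of them. Without Rn45s, 119137 reads remained with KLA and 192423 with vehicle, whereas each of the other 4 libraries held at least 910902 and gave Rn45s at most 1.20%. The nuclear noncoding RNA Malat1 took a further 3.33% of the remaining reads with KLA and 5.49% with vehicle, and small noncoding RNA genes took 3.42% and 3.87%. In the other libraries Malat1 took at most 0.253% and the small genes at most 0.0648%. Scaled library sizes (TMM, Rn45s left out) were 92949 with KLA and 165284 with vehicle, so a gene with equal scaled level has 1.78 vehicle reads for each KLA read; the same figure is 1.07 in the siSmyd5 and 1.08 in the siCtl pair.

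**Figure D1:**
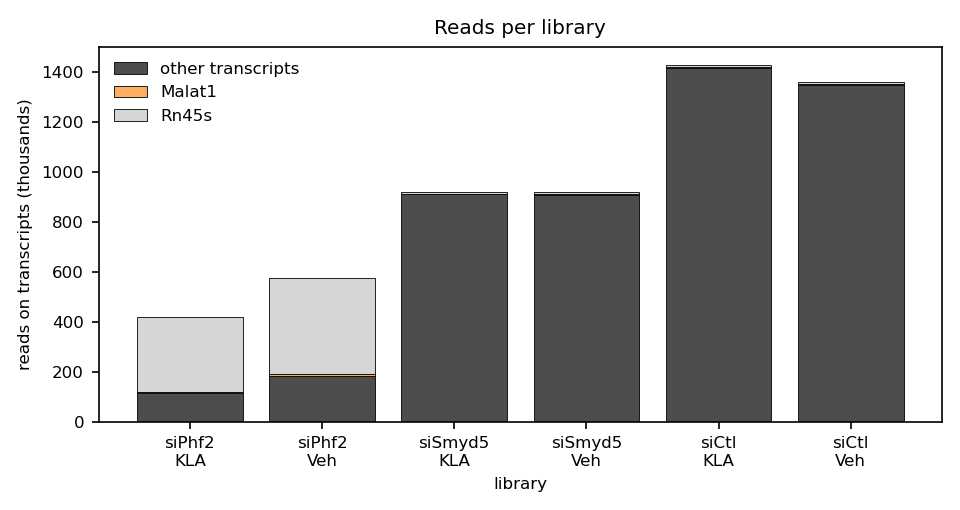
Reads on transcripts in each library (linear axis), split into Rn45s, Malat1 and all other transcripts. The libraries labelled siPhf2 hold 119137 (KLA) and 192423 (vehicle) reads outside Rn45s, and the rest of the bars hold at least 910902.

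Whether the targeted gene followed the label depended on the scaling. Phf2 (NM_011078, mm9 chr13:48897119-48966254) had 8 reads with KLA and 29 with vehicle in the libraries labelled siPhf2, 34 and 52 in the siSmyd5 libraries and 120 and 113 in the siCtl libraries. As a scaled level, Phf2 in the library labelled siPhf2 vehicle stood at 2.54 times that in siCtl vehicle (95% counting interval 1.63 to 3.85), and with KLA at 1.09 times (0.458 to 2.21). With libraries scaled to their totals without Rn45s the same ratios were 1.802 (1.155 to 2.729) for vehicle and 0.794 (0.335 to 1.616) for KLA. With totals including Rn45s they were 0.605 (0.387 to 0.916) for vehicle and 0.227 (0.0957 to 0.462) for KLA. Only this last scaling put Phf2 below siCtl with equality outside the interval. The tag totals in the column headers also disagree with the names: the columns named siPhf2 give whole reads only with the totals printed for siCtl, and the reverse. Names or totals were exchanged in the table, and which of them cannot be told apart here. The libraries are therefore called by their labels throughout, and values with the siPhf2 and siCtl names exchanged are given where they change a result. Within the labelled pair Phf2 itself was not called, with a KLA over vehicle ratio of 0.491 (0.194 to 1.10), and the other siRNA target, the methyltransferase gene Smyd5, had 0 reads with KLA and 3 with vehicle.

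Macrophage genes were present in both libraries. Reads with KLA and with vehicle were 281 and 400 for the endosomal glycoprotein Cd68, 138 and 357 for lysozyme Lyz2, 78 and 158 for the growth factor receptor Csf1r, 68 and 161 for the integrin Itgam, and 58 and 59 for Emr1 (F4/80). The mannose receptor Mrc1 had 33 and 65, the scavenger receptor Msr1 19 and 19, and the LPS co-receptor Cd14 81 and 22. All 8 macrophage markers looked at were read in both libraries. Markers of T and NK cells had 0 reads in both libraries for 14 of 14 genes, which allows up to 3 reads a library. The summed B cell markers had 22 reads with KLA and 65 with vehicle, neutrophil markers 29 and 22, dendritic cell markers 2 and 0, eosinophil and mast cell markers 1 and 0, and markers of fibroblasts, mesothelium and endothelium 57 and 140. Of the neutrophil reads, the receptor gene Csf3r held 29 with KLA and 17 with vehicle and was called higher, while the granule genes Elane, Mpo and Camp had 0 in both. The remaining neutrophil reads were all in the vehicle library. The other measured gene of that list had 0 reads with KLA and was not called, and the list median log2 ratio was 0.17. The collagen gene Col1a2 had 11 reads with KLA and 43 with vehicle and was called lower. Their part in the results was not tested. In bulk RNA, fewer cells of a type and less RNA per cell cannot be told apart.

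Of 23282 gene symbols, 7994 had a mean of at least 10 reads over the 6 libraries and were measured. Calls were made by size: a gene counted as higher or lower if the log2 ratio of its scaled reads, after adding 2 reads to each side, reached 1 in either direction and equality lay outside the 95% interval of the plain ratio. With KLA 664 genes were called higher (8.31% of those measured) and 513 lower (6.42%). The same rule gave 699 higher (8.74%) and 280 lower (3.5%) in the siSmyd5 pair, and 572 higher (7.16%) and 214 lower (2.68%) in the siCtl pair. The median log2 ratio of all measured genes was −0.12 in the labelled siPhf2 pair, 0.00020 in the siSmyd5 pair and 0.02 in the siCtl pair. Genes called higher held 29.0% of the KLA reads outside Rn45s and 5.62% of the vehicle reads, and genes called lower held 2.92% and 11.6%.

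How many genes sit on each side depended on the scaling. Higher calls were 56.4% of all calls; with the total including Rn45s as library size they were 33.2% (480 higher, 967 lower, median log2 ratio −0.40), and with the total of coding transcripts 43.8% (575 higher, 738 lower, median −0.27). With the siPhf2 and siCtl names exchanged they were 72.8% (572 higher, 214 lower). The median measured gene had 12 reads in the pair, and 1198 measured genes had 0 reads with KLA and 464 with vehicle. The median 95% interval of a ratio was 14.5-fold wide, against 2.43-fold in the siSmyd5 and 1.97-fold in the siCtl pair. In 2732 genes with at least 20 reads in the pair, 480 were called higher (17.6%) and 339 lower (12.4%).

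**Figure D2:**
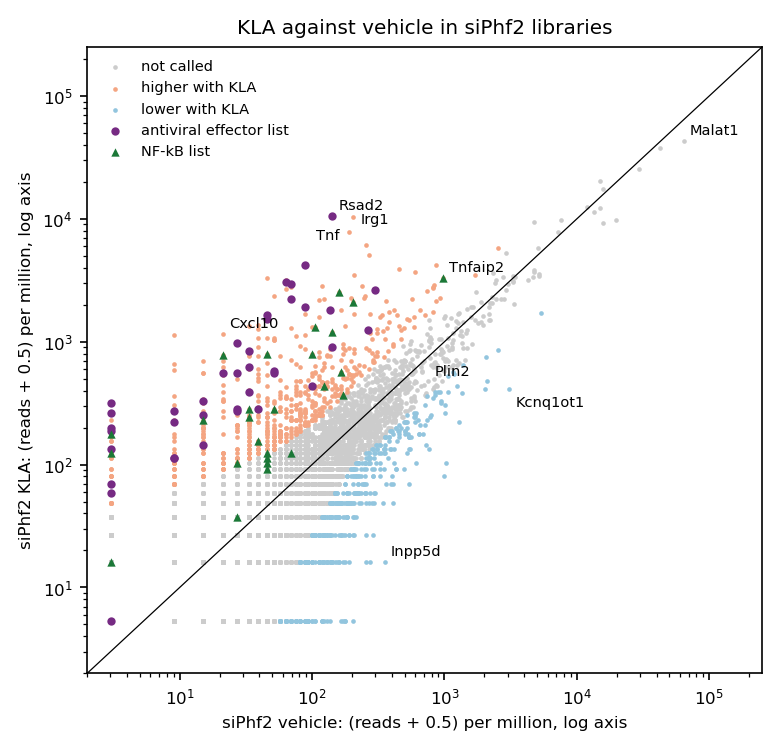
Levels of the 7994 measured genes in the libraries labelled siPhf2, as (reads + 0.5) per 1000000 of the scaled library size on log axes, KLA upward and vehicle to the right; the line marks equal levels. All members of the antiviral effector list but 1 lie among the 664 genes called higher, and Malat1, at the top right, was not called.

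The 15 genes highest with KLA, by the lower end of their interval, held cytokine and chemokine genes as well as interferon-linked genes. First was Rsad2 (viperin, a radical SAM enzyme that blocks viral replication; NM_021384, chr12:27127608-27141317), with 976 reads with KLA and 23 with vehicle, a ratio of 75.5 (50.0 to 120). Gbp5, an interferon-induced guanylate binding protein that promotes inflammasome assembly, had 304 reads with KLA and 7 with vehicle (77.2, 37.0 to 194). Irg1, which makes itaconate in activated macrophages, had 953 and 33 (51.4, 36.3 to 75.04). In each of these 3 genes the vehicle library held enough reads for the interval to be closed on both sides. The nucleotide kinase Cmpk2, the immediate neighbour of Rsad2 on chromosome 12, had 392 reads with KLA and 14 with vehicle (49.8, 29.3 to 91.9). The GTPase gene Ifi47 had 104 and 1, and its single vehicle read leaves a ratio of 185 with an interval of 32.5 to 7374. Tnf (NM_013693, chr17:35336336-35338941) had 729 and 31 (41.8, 29.2 to 62.0), and Il1b 296 and 10 (52.6, 28.2 to 111). The remaining 8 were Ifit2, Mx1, Slc7a2, Ccl3, Tlr2, Cxcl10, Ccl5 and Ifit1, with ratios between 33.6 and 108.

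The 15 genes lowest with KLA were of other kinds. Plin2, which coats lipid droplets (NM_007408, chr4:86302469-86315963), had 38 reads with KLA and 333 with vehicle (ratio 0.203, 0.141 to 0.284). Abcg1, an exporter of cholesterol to HDL, had 6 and 88 (0.121, 0.0433 to 0.275), and Dnmt3a, a de novo DNA methyltransferase, 20 and 211 (0.169, 0.101 to 0.267). The focal adhesion gene Tns1 had 9 and 169 (0.0947, 0.0426 to 0.184). Inpp5d (SHIP1, a lipid phosphatase that restrains PI3K signalling) had 1 and 58 (0.0307, interval 0.000763 to 0.178), and the endocytic adaptor gene Hip1 1 and 45. The chemokine receptor Cxcr4 had 0 reads with KLA and 29 with vehicle, the muscle atrophy ubiquitin ligase Fbxo32 0 and 33, the receptor gene Cd300lb 0 and 27, the transcription repressor Zfp238 0 and 29, and 5430435G22Rik 0 and 28. Against a floor of 3 reads per library, the smallest fall with KLA among these 5 genes was 5.06-fold. That figure leaves out counting error in the vehicle reads. Kcnq1ot1, a long antisense RNA of the imprinted Kcnq1 locus (NR_001461, 83436 bases in the table), had 38 and 508 (0.133, 0.0930 to 0.185). The last 3 were 2310044G17Rik (7 and 163), the chromatin reader Zmynd8 (1 and 42) and the actin regulator Mtss1 (4 and 67).

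**Figure D3:**
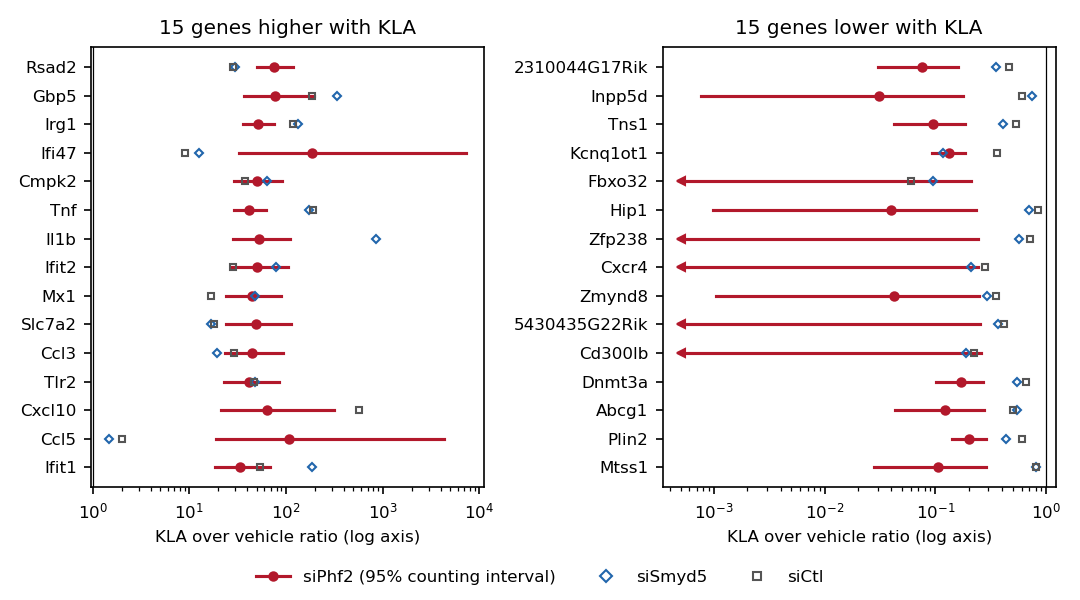
KLA over vehicle ratios (log axis) of the 15 genes highest and the 15 lowest with KLA by the nearer end of their interval; filled circles and bars are the labelled siPhf2 pair with its 95% counting interval, open diamonds siSmyd5, open squares siCtl. Arrowheads at the left mark genes with 0 KLA reads, and no point is drawn where an arm has 0 vehicle reads (Il1b in siCtl, Cxcl10 in siSmyd5). Ifi47 and Ccl5 lie far to the right of their points in the other arms.

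Short promoter windows of the most abundant responders of both branches are shown because NF-kB and interferon factors bind sites with recognisable letters. They are the RefSeq windows of build GRCm38.p6, 250 bases before to 50 bases after the most upstream start, for the antiviral genes Rsad2 and Cmpk2 and for Tnfaip3, the A20 enzyme that ends NF-kB signalling. Capitals mark a kB match (GGG and TTTCC with 2 free bases between them) or an interferon response element match (GAAA and GAAA with 2 free bases between them), on either strand.
Tnfaip3 (chr10:19015361-19015660, minus strand): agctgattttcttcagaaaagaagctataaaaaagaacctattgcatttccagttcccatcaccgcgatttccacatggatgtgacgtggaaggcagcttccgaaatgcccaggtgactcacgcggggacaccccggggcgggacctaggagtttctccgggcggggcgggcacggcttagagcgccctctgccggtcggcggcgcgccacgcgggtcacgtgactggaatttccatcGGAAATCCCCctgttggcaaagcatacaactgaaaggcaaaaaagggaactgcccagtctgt
Rsad2 (chr12:26456403-26456702, minus strand): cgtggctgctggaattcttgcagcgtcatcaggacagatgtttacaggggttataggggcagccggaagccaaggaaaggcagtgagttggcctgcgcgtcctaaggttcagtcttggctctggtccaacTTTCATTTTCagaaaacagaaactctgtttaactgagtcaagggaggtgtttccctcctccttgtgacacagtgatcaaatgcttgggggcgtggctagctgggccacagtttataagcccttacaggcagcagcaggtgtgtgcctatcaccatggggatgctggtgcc
Cmpk2 (chr12:26468965-26469264, plus strand): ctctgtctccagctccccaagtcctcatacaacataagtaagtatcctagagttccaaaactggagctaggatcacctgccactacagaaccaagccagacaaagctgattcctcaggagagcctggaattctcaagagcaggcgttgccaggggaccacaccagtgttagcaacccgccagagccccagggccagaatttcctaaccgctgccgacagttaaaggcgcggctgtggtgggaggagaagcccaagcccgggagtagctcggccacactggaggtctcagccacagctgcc
The kB match of Tnfaip3 begins at position −12 and the interferon match of Rsad2 at −120, counted from the start site, both on the strand opposite to the gene. The Cmpk2 window holds neither set of letters. Windows of the other chosen genes Tnfaip2 and Ifit2 also hold neither, and Nfkb1 had no entry. By NCBI gene number, 32 of the 38 antiviral effectors called higher matched a window; 15 of them (46.9%) hold the interferon letters and 0 the kB letters, against 3.49% and 1.63% of all 27025 windows. A match describes letters and does not show binding.

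Genes of the NF-kB system were mostly higher with KLA. Of 26 measured members 19 were called higher with KLA and 0 lower, with a median log2 ratio of 1.97 against −0.12 for all genes. Here and for the lists below, 8.31% of all measured genes were called higher and 6.42% lower. Among genes with at least 20 reads in the pair the shares were 17.6% and 12.4%. Tnfaip3 (NM_001166402, chr10:18720717-18731769) had 236 reads with KLA and 26 with vehicle (16.1, 10.7 to 25.2). The subunit genes Nfkb1 (195 and 33; 10.5, 7.24 to 15.7) and Nfkb2 (111 and 23; 8.58, 5.44 to 14.1) were called higher, as was Rel (26 and 8). Genes of the IkB family were among them too: Nfkbia, which holds NF-kB in the cytoplasm, had 121 and 17 (12.7, 7.59 to 22.4), and its nuclear relative Nfkbiz 74 and 7 (18.8, 8.68 to 48.4). Another, Nfkbie, had 16 reads with KLA and 0 with vehicle, 9.48-fold higher against a floor of 3 reads. Tnfaip2 had 306 and 161 reads, a ratio of 3.38 (2.78 to 4.12). The summed list had 1514 reads with KLA and 435 with vehicle, a ratio of 6.19 (5.56 to 6.90); the same sum stood at 6.51 in the siSmyd5 and 6.12 in the siCtl pair. The 3 arms were within 1.06-fold of each other on this sum.

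Secreted cytokines were called higher for 11 of 20 measured genes, beside 8.31% of all measured genes, and lower for 0 (median log2 ratio 2.42). Some, such as Csf2, reached the minimum mean almost only through KLA libraries (36 reads in siSmyd5, 26 in siCtl, 0 with vehicle). For such genes the filter itself favours a higher level with KLA. With no minimum the list median was 1.20. Il1a had 265 reads with KLA and 19 with vehicle (24.8, 15.6 to 41.9), and its antagonist Il1rn 72 and 21 (6.10, 3.71 to 10.4). Inhba, an activin subunit, had 28 and 1, and the TNF family ligands Tnfsf9 and Tnfsf15 had 25 and 3 and 21 and 1. Well-known targets with few reads were not called: Il6 had 2 reads with KLA and 0 with vehicle and Csf2 1 and 0, whereas Il6 had 178 and 1 in the siSmyd5 and 168 and 9 in the siCtl pair. Il12b had 6 and 0 and was called higher, 3.56-fold against a floor of 3 reads. Tgfb1, a cytokine that restrains inflammation, had 41 and 66 reads (1.11, 0.729 to 1.66) and was not called.

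Chemokines were called higher for 9 of 15 and lower for 0 (median 2.77). The filter acts here too, and with no minimum the median was 0.761. The neutrophil attractants Cxcl2 (119 reads with KLA, 11 with vehicle; 19.2, 10.4 to 39.6) and Cxcl1 (30 and 3) were among them. So were Ccl3 (248 and 10; 44.1, 23.6 to 93.1) and Ccl4 (118 and 6; 35.0, 15.6 to 97.2). The interferon-linked Cxcl10, which draws T cells, had 107 and 3 (63.4, 21.1 to 312). The monocyte attractant Ccl2 had 27 reads with KLA and 9 with vehicle, a ratio of 5.34 (2.44 to 12.9), against 26.9 in the siSmyd5 and 21.3 in the siCtl pair. Ccl6, which resident macrophages express, had 9 and 20 and was not called.

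Fewer genes of the receptor side were called. Of 21 measured genes of the TLR pathway 8 were called higher and 2 lower, with a median of 0.16 (−0.07 when scaled to the total including Rn45s). Tlr2, the receptor of lipoproteins, had 257 reads with KLA and 11 with vehicle (41.6, 22.8 to 84.3), and Cd14 stood at 6.55 (4.05 to 11.0). The adaptor Myd88 had 22 and 6 (6.52, 2.56 to 19.7), and the endosomal receptor Tlr7 32 and 10. Tlr13, which reads bacterial ribosomal RNA, was called lower with 17 and 66 (0.458, 0.252 to 0.790). Tlr4 itself, with 9 and 16 (interval of the ratio 0.390 to 2.40), and the TRIF gene Ticam1, with 8 and 26, were not called. Among 18 measured brakes on cytokine signalling and mRNA, 6 were called higher and 1 lower. Socs3, which blocks JAK signalling, had 41 and 3 (24.3, 7.75 to 123), and the RNase gene Zc3h12a 47 and 6; the RNA-binding gene Zfp36l2, with 4 and 44, was the lower one.

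Interferon-induced antiviral effectors had the largest share called of all lists: 38 of 39 measured genes were higher and 0 lower, with a median log2 ratio of 3.61 (3.42 with genes at 0 reads at their bound). Ifit1, which binds foreign RNA caps, had 208 reads with KLA and 11 with vehicle (33.6, 18.4 to 68.4), and Ifit2 283 and 10 (50.3, 27.0 to 106). Mx1, whose transcript is filed as noncoding in this table (NR_003520), had 273 and 11 (44.1, 24.3 to 89.5). The growth regulators Slfn2 and Slfn5 had 167 and 22 (13.5, 8.63 to 22.1) and 245 and 49 (8.89, 6.52 to 12.3). The ubiquitin-like modifier Isg15 had 152 and 7 (38.6, 18.3 to 97.7). Usp18, the enzyme that removes it, had 29 and 0, 17.2-fold higher against a floor of 3 reads. Summed over the list, 4039 reads with KLA faced 316 with vehicle, 3.39% and 0.164% of reads outside Rn45s. Families such as Ifit, Oas, Gbp and Slfn have near-identical copies, and how reads with several matches were treated is not given, so single members are uncertain.

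The interferon-induced GTPases, which attack the vacuoles of intracellular microbes, were called higher for 11 of 12 and lower for 0 (median 3.96, and 2.22 with no minimum). Gbp3 had 124 reads with KLA and 5 with vehicle (44.1, 18.4 to 138), Gbp2 96 and 8 (21.3, 10.4 to 50.8), and Irgm1 71 and 6 (21.0, 9.20 to 59.3). Nucleic acid sensors and interferon-linked PARPs followed with 17 of 20 higher and 0 lower (median 3.07). The RNA sensors Ifih1 (MDA5; 204 and 18; 20.2, 12.4 to 34.7) and Ddx58 (RIG-I; 62 and 7; 15.8, 7.21 to 40.8) were called higher. Parp14 had 568 and 42 (24.1, 17.6 to 33.7). Together the 3 lists hold 71 measured genes, of which 66 were called higher.

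Transcription factors of the interferon system were called in part. Of 21 measured IRF and STAT pathway genes 10 were called higher and 0 lower (median 0.83). The inducible Irf1 (72 reads with KLA, 5 with vehicle; 25.6, 10.5 to 81.2) and Stat2 (105 and 14; 13.3, 7.61 to 25.2) were called higher. Irf7, which amplifies interferon production, had 51 and 2 (45.3, 11.9 to 385). Stat3 (37 and 49), Stat6 (20 and 58) and the kinases Jak1 (93 and 92) and Tyk2 (16 and 25) were not called. Immediate early regulators were mixed, with 7 of 20 higher, 2 lower and a median of 0.58: Junb had 25 and 9 (4.94, 2.23 to 12.03) and Egr1 9 and 3 (5.34, 1.33 to 30.6), while Jun had 2 and 31 (0.115, 0.0133 to 0.451).

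Inducible enzymes and effectors were called higher for 26 of 42 and lower for 0 (median 2.06). Prostaglandin synthase Ptgs2 had 127 reads with KLA and 6 with vehicle (37.6, 16.8 to 105), nitric oxide synthase Nos2 64 and 3 (37.9, 12.4 to 189), the arginine transporter Slc7a2 219 and 8 (48.7, 24.3 to 114) and the inflammasome sensor Nlrp3 205 and 20 (18.2, 11.5 to 30.5). The matrix protease Mmp12 had 290 and 548 and was not called (0.941, 0.813 to 1.09). Antigen presentation and costimulation gave 14 of 28 higher and 0 lower (median 1.27). The checkpoint ligand Cd274 (PD-L1) had 264 and 39 (12.04, 8.58 to 17.3), the peptide transporter Tap1 85 and 13 (11.6, 6.45 to 22.7), H2-K1 75 and 46 (2.90, 1.98 to 4.28) and B2m 197 and 143 (2.45, 1.97 to 3.06). H2-D1, with 195 and 313 reads, was not called (1.11, 0.922 to 1.33). Survival genes gave 8 of 22 higher and 0 lower, with the caspase-8 inhibitor Cflar at 73 and 16 (8.11, 4.68 to 14.9).

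Metabolic, lysosomal and housekeeping lists had medians near or below that of all genes (−0.12), except the cell cycle list (0.42). Their higher counts are read against the 8.31% of all measured genes called higher, or 17.6% of those with at least 20 reads. Their lower counts are read against the 6.42% of all measured genes called lower, or 12.4% of those with at least 20 reads. Lipid handling and nuclear receptors had 2 of 27 called higher and 7 lower (median −0.48). Beside Plin2 and Abcg1, the lipid chaperone Fabp4 had 4 reads with KLA and 48 with vehicle (0.148, 0.0388 to 0.405) and the cholesterol esterifier Soat1 34 and 139 (0.435, 0.290 to 0.637). The cholesterol exporter Abca1 went the other way, with 108 and 51 (3.77, 2.68 to 5.36). Lysosome genes had 1 of 37 higher and 4 lower (median −0.41), a lower count no larger than the 12.4% above, as 36 of them have at least 20 reads: Gusb had 52 and 190 (0.487, 0.351 to 0.665) and the proton pump subunit Atp6v0d2 50 and 193, while the abundant protease gene Ctsb had 1164 and 1961 (1.06, 0.981 to 1.14) and was not called. Sterol synthesis had 0 of 15 higher and 2 lower (median −0.28), and ribosomal protein genes 0 of 27 higher and 3 lower (median −0.28). Both lists hold too few called genes to be ranked against the shares over all genes. Macrophage identity genes had 5 of 39 higher and 2 lower (median −0.09), oxidative phosphorylation 3 of 32 and 1 (median −0.13), glycolysis and hypoxia 3 of 21 and 2 (median 0.01, and −0.12 when scaled to the total without Rn45s), cell cycle 2 of 13 and 0 (median 0.42). Genes of H4K20 methylation and the NCoR corepressor had 1 of 18 higher and 2 lower (median −0.33). The higher one was the histone demethylase gene Kdm6b, with 51 reads with KLA and 17 with vehicle (5.34, 3.03 to 9.85); the corepressor gene Ncor1 had 35 and 69 reads (0.902, 0.583 to 1.37) and was not called.

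**Figure D4:**
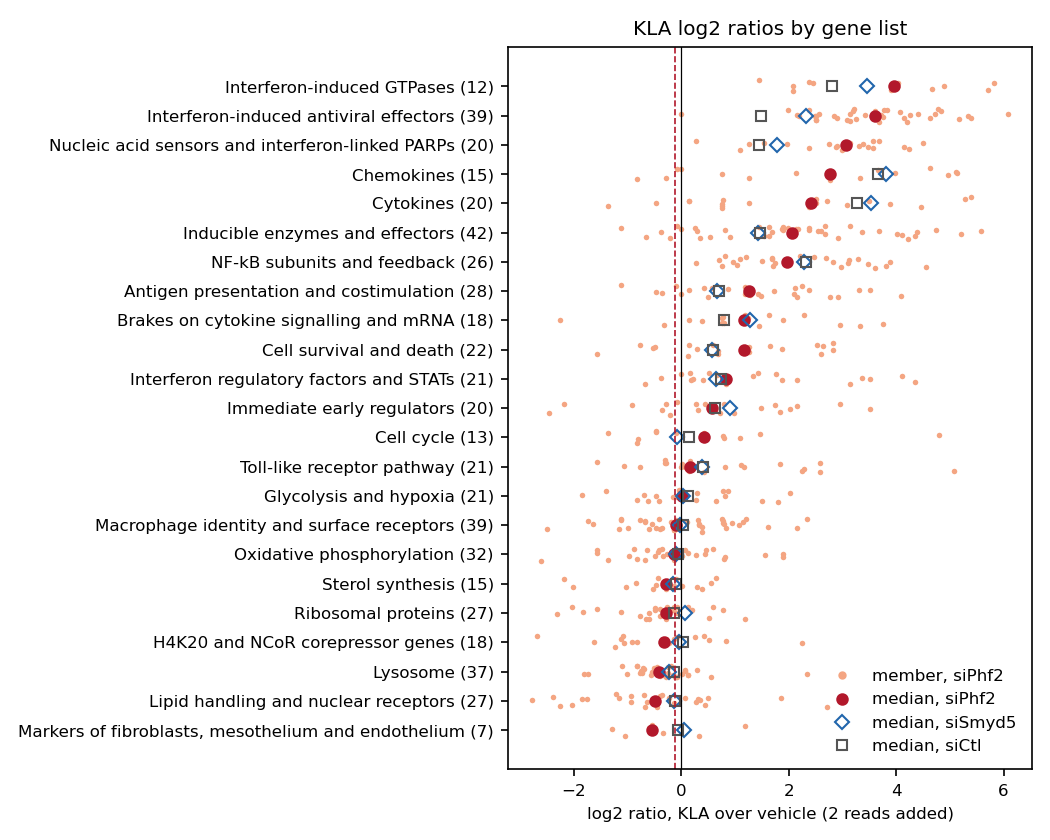
KLA over vehicle log2 ratios by gene list, with the number of measured members in brackets; small dots are members in the labelled siPhf2 pair, and large symbols are list medians in the siPhf2 (filled circle), siSmyd5 (diamond) and siCtl (square) pairs. The dashed line is the median of all genes in the siPhf2 pair, −0.12. The 3 interferon lists lie farther right in the siPhf2 pair than in the other pairs, and the cytokine and chemokine medians lie farther left; their summed ratios, 16.3 and 18.8, lie above those of the other pairs.

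Nuclear and noncoding RNAs also differed between the libraries of the pair. Neat1, the scaffold of paraspeckles, had 160 reads with KLA and 878 with vehicle (0.324, 0.272 to 0.384) and was called lower; it stood at 0.541 in the siSmyd5 and 0.581 in the siCtl pair. Malat1 had 3968 and 10572 (0.667, 0.643 to 0.692) and was not called. Among noncoding RNAs with far more reads under the siPhf2 label than elsewhere, the vault RNA gene Vaultrc5 had 1147 and 2478 reads (0.823, 0.767 to 0.883), against at most 4 in each of the other libraries. B230208H11Rik had 913 and 1253 (1.30, 1.19 to 1.41), against at most 3 elsewhere, and the RNase MRP RNA Rmrp 132 and 209 (1.12, 0.896 to 1.40). None of these 3 was called, while the snoRNA Snord49b (19 and 108; 0.313, 0.181 to 0.513) was called lower. Calls varied with transcript length. With measured genes in 4 groups of rising length, lower calls were 88, 81, 133 and 211, higher calls 106, 188, 191 and 179, and median log2 ratios −0.13, −0.07, −0.08 and −0.24; in the siCtl pair the shortest group had a median of −0.07 and the longest 0.13. The part of length in the calls was not tested.

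The same contrast in the other arms gives a scale for these values, since the 3 pairs share no library. Of the 572 genes called higher in the siCtl pair, 324 (56.6%) were called higher under the siPhf2 label, which is 48.8% of the 664 called there, and 0 were called lower. Another 248 were not called, 197 of them with under 20 reads in the siPhf2 pair. Lower calls overlapped less, with 60 of 214 (28.0% of the siCtl and 11.7% of the siPhf2 calls). In 2732 genes with at least 20 reads, the log2 ratios of the siPhf2 pair had a Pearson correlation of 0.743 and a Spearman correlation of 0.633 with those of siCtl, and 0.744 and 0.607 with siSmyd5. The siSmyd5 and siCtl pairs had 0.940 and 0.804 with each other. Genes are not independent replicates, depth differs between arms, and these are descriptions.

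For each gene with at least 20 reads, the siPhf2 KLA ratio was divided by that of siCtl, with a counting interval. It was at least 2-fold larger, with the interval excluding equality, for 223 of 2731 genes (8.17%) and at least 2-fold smaller for 288 (10.5%). Against siSmyd5 the counts were 212 (7.77%) and 281 (10.3%) of 2729. Interferon-linked lists held many of the larger ratios: 20 of 30 antiviral effectors with enough reads and 0 smaller, 6 of 8 GTPases, 10 of 15 sensors and PARPs, and 9 of 14 antigen presentation genes. Against siSmyd5, 18 antiviral effectors were larger and 2 smaller, and 6 GTPases larger and 1 smaller. Inducible enzymes held 12 of 28 larger and 2 smaller than siCtl, cytokines 3 of 9 larger and 2 smaller, and chemokines 2 of 9 each way. The NF-kB list held 1 of 17 larger and 0 smaller, and immediate early regulators 0 of 7 either way. As summed levels, the antiviral list stood at 22.7 times vehicle (20.3 to 25.6) in the siPhf2 pair, 6.80 in the siSmyd5 and 4.49 in the siCtl pair, and the GTPase list at 35.8 (26.4 to 49.9), 9.39 and 6.27. Summed cytokines stood at 16.3 (13.9 to 19.2), 8.29 and 8.93 and chemokines at 18.8 (14.8 to 24.3), 8.01 and 8.90, although their median log2 ratios were smaller in the siPhf2 pair (2.42 against 3.54 and 3.27; 2.77 against 3.80 and 3.66). The 2 added reads weigh more in the shallower siPhf2 pair and shrink its log2 ratios more, so these medians are unlike measures. With 0.5 reads added the siPhf2 medians were 2.77 (cytokines) and 3.46 (chemokines), and the other arms were not rerun. With ratios against 0 reads set to their bounds and genes without a bound left out, the chemokine medians were 3.66, 3.16 and 3.66. In the siPhf2 pair this left out 4 chemokines (Ccl8, Cxcl3, Cxcl5 and Pf4), as none had more reads than the floor of 3. The siPhf2 median then rests on fewer genes than that of siCtl, and their closeness does not show equal responses. On the same basis the siPhf2 cytokine median stayed below those of both other arms. Whether the arms differ beyond the spread of repeated libraries was not tested, as no arm has a repeat. With the siPhf2 and siCtl names exchanged, the siPhf2 values of every comparison become those of siCtl, and the antiviral median log2 ratio becomes 1.48.

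The 10 genes with the largest excess over siCtl, ranked by the lower end of its interval, had between 0 and 14 vehicle reads under the siPhf2 label. As a scaled level their vehicle value was higher in siCtl for 10 of 10 genes and in siSmyd5 for 9 of 10. The choice itself favours this, because vehicle reads of siPhf2 and siCtl enter the value by which the genes were ranked. Irf7 (NM_016850, chr7:148449082-148452323) had 51 reads with KLA and 2 with vehicle under the siPhf2 label, 396 and 312 in the siSmyd5 and 536 and 576 in the siCtl pair. As a level in CPM, reads per 1000000 of the scaled library size, that is 549 with KLA and 12.1 with vehicle under the siPhf2 label, 419 and 307 in siSmyd5, and 354 and 352 in siCtl. On this scaling the KLA levels of the 3 arms lay within 1.55-fold of each other, and the vehicle levels within 29.1-fold. Levels set between arms depend on the scaling, as they did for Phf2. Complement factor Cfb (NM_008198, chr17:34993319-34999459) had the same 51 and 2 reads, a ratio of 45.3 (11.9 to 385), against 1.27 and 1.22 in the siSmyd5 and siCtl pairs. The chemokine Ccl5 had 61 and 1 (108, 18.8 to 4354), against 1.48 and 2.02. The others included Oas3 (51 and 4), Oasl2 (176 and 14), Xaf1 (24 and 0, 14.2-fold higher against a floor of 3 reads) and Pdpn (55 and 5). Also among them were the cell cycle inhibitor Cdkn1a (54 and 1), Ifitm3 (36 and 5) and Atp10a (36 and 3). Ifitm3, which blocks virus entry, stood at 387 CPM with KLA and 30.3 with vehicle, against 366 and 375 in siSmyd5 and 332 and 275 in siCtl. For Rsad2 the arms differed on the other side, with 10500 CPM with KLA and 139 with vehicle, against 1887 and 63.0 in siSmyd5 and 1230 and 43.4 in siCtl.

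Some inflammatory genes had a higher vehicle level under the siPhf2 label than elsewhere. Cxcl2 had 119 reads with KLA and 11 with vehicle under the siPhf2 label, and 1246 and 1 in siCtl; its ratio was 0.0143 of that in siCtl. As a level, Cxcl2 stood at 1280 CPM with KLA and 66.6 with vehicle under the siPhf2 label, against 935 and 1.97 in siSmyd5 and 823 and 0.611 in siCtl. Il1b stood at 3185 CPM with KLA and 60.5 with vehicle under the siPhf2 label, against 841 and 0.984 in siSmyd5, and 595 with KLA in siCtl, where vehicle had 0 reads. Tnf stood at 7843 and 188 CPM under the siPhf2 label, against 2241 and 12.8 in siSmyd5 and 3257 and 17.1 in siCtl. On the TMM sizes, which leave out Rn45s, KLA levels of these 3 genes were thus higher under the siPhf2 label than in the other arms. Their vehicle levels exceeded those of the other arms by larger factors. The KLA order of Tnf and Cxcl2 reverses on totals including Rn45s. There Tnf had 729 of 420142 KLA reads under the siPhf2 label and 4929 of 1429521 in siCtl, and Cxcl2 119 and 1246 of the same totals. The order of Il1b reverses against siSmyd5 but not against siCtl. It had 296 KLA reads of 420142 under the siPhf2 label, 795 of 919325 in siSmyd5 and 901 of 1429521 in siCtl. Ccl2 differed from these 3 genes on the TMM sizes. It stood at 290.5 CPM with KLA and 54.5 with vehicle under the siPhf2 label, against 1617 and 60.04 in siSmyd5 and 1396 and 65.4 in siCtl. On these sizes its vehicle level was close in the 3 arms and its KLA level lower under the siPhf2 label. Cxcl2 and Il1b were among the 10 genes furthest below siCtl, ranked by the upper end of the interval, a choice that favours high siPhf2 vehicle reads. The others were Fabp4, Atrx, Hip1, Inpp5d, Rps15a, Zfp238, 2310044G17Rik and Vps13c, all called lower with KLA under the siPhf2 label. Fabp4, with 4 and 48 reads there, had 274 and 299 in siSmyd5 and 362 and 225 in siCtl.

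**Figure D5:**
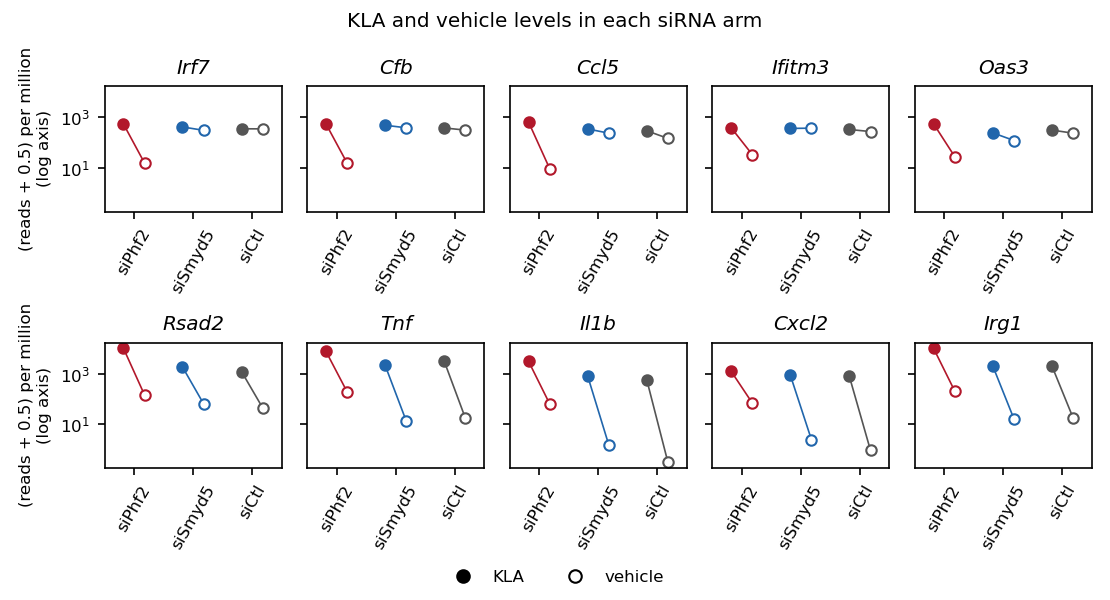
Levels of 10 genes in all 6 libraries as (reads + 0.5) per 1000000 of the scaled library size (log axis), filled for KLA and open for vehicle, in the siPhf2, siSmyd5 and siCtl arms. Irf7, Cfb, Ccl5, Ifitm3 and Oas3 have a low vehicle level under the siPhf2 label, about 12.1 CPM for Irf7 against 307 and 352, and Tnf, Il1b, Cxcl2 and Irg1 a high one.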

How the data were processed

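PolyA RNA-seq libraries, 1 for each of 6 groups, were grouped by title and agent label. Per the file headers, the authors deposited 1 table of RefSeq transcripts whose signal is read number set to a common depth of 10000000 tags. The submitters' processing notes list HOMER and mm9 but state neither their use nor a version; aligner, strand handling and the counting of ambiguous reads: not given in the sources used here. Whole reads were recovered by dividing each value by 10000000 over a header total (whole within 0.02): 100% of values in every column, for siPhf2 and siCtl only with each other's totals (0.76% and 1.13% with the siPhf2 columns' own). Of 29619 transcripts, 2 without a symbol were dropped, Rn45s was left out, and each symbol took its transcript with the highest mean; 7994 genes averaging 10 reads or more were measured. Genes that passed only through a group where they are high had to differ.

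Scaling used TMM (edgeR 4.0.16, R 4.3.3) over the 6 libraries. Ratios have exact conditional Poisson 95% intervals (SciPy 1.17.1); they cover counting error only, because PCR reads without molecular identifiers are not independent molecules. With 1 library a group there is no test and no p-value. Against 0 reads a ratio is set against a floor of 3 reads per library, called its bound. The bound leaves out counting error in the other library, so the 95% interval can reach closer to equality. The calling script was tested on simulated data. Alternatives were other scalings (DESeq2 1.42.0 size factors among them), reads added, minimums, a 99% interval, another transcript choice and exchanged names; 2 more (the coding total and at least 20 reads in the pair) were chosen after seeing the data. Members and 28 gene lists were chosen with earlier results of these data known. Named genes are the 15 most extreme calls each way, list members with most reads (up to 8 called, up to 4 not called), the 10 genes each way that differ most from siCtl, the siRNA targets and noncoding RNAs with at least 100 reads; macrophage markers and Rel, Nfkbie, Il6, Csf2, Il12b, Isg15, Usp18, Nos2, Itpkb, Zbed6 and Bcl7b were added after their values were seen.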

Additional observations from a re-analysis of the deposited data

Results flagged for a closer look

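In 4 genes the labelled siPhf2 pair and the siSmyd5 pair were called in opposite directions; each pair is 1 library against 1, and the difference was not tested. Bcl7b, a chromatin remodelling subunit, had 6 reads with KLA and 0 with vehicle, 3.56-fold higher against a floor of 3 reads. Its log2 ratio was 2.37 (2 reads added, as in all 4 genes). It had 17 and 41 reads in siSmyd5 (−1.08) and 36 and 42 in siCtl. Pfkfb3, an activator of glycolysis, had 17 and 9 (1.504), against 21 and 64 in siSmyd5 (−1.42) and 76 and 105 in siCtl. Itpkb, an inositol phosphate kinase, had 9 and 44 (−1.33), against 48 and 10 in siSmyd5 (2.15) and 88 and 51 in siCtl. Zbed6, a transcription repressor, had 9 and 42 (−1.26), against 84 and 36 in siSmyd5 (1.28) and 211 and 141 in siCtl.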

How the results depend on the processing

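No paired analysis was possible because each group holds 1 library. Genes called lower were 513, but 967 with the total including Rn45s, 334 with a minimum mean of 50 reads, 298 with a 99% interval, 339 with at least 20 reads in the pair and 214 with the siPhf2 and siCtl names exchanged; fewer genes are measured under the minimums, and the cause was otherwise not tested. Genes called higher stayed within 1.5 times of 664 in all settings tried (480 to 717). The share of siCtl higher calls shared with the siPhf2 label was 56.6%, 60.8% when scaled to the total without Rn45s and 48.8% with names exchanged.

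List medians moved by over 1.5-fold in these settings. With 0.5 reads added: chemokines 3.46, antiviral effectors 4.30 and sensors 3.71. With 5 reads added: cytokines 1.55, chemokines 2.05, antiviral effectors 2.78 and GTPases 3.37. With a mean of 10 reads, or at least 20 in all, in the pair: cytokines 3.49, chemokines 3.98, NF-kB 2.69, TLR pathway 1.13 and antigen presentation 1.91. With a minimum mean of 50: cytokines 3.08, chemokines 3.66, NF-kB 2.76 and TLR pathway 0.956. With no minimum: cytokines 1.20, chemokines 0.761 and GTPases 2.22. With names exchanged: cytokines 3.27, chemokines 3.66, antiviral effectors 1.48, GTPases 2.81, sensors 1.44 and inducible enzymes 1.46. The median of all genes was −0.21 with the total without Rn45s, −0.22 without small noncoding RNAs too, −0.27 with the coding total and −0.40 with the total including Rn45s, so log2 ratios lie lower by about the difference from −0.12.

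Of 283 genes followed (252 measured with a mean of 10 reads in the pair and 246 with a minimum mean of 50), 0 reversed in 12 of the 13 settings run on them. With names exchanged 67 were no longer called and 17 reversed, to log2 ratios of 0.26 (2900060B14Rik), 0.17 (Atrx), −0.051 (B2m), −0.11 (Bcl7b), −0.28 (Casp8), 0.14 (Col1a2), −0.20 (Cox6a1), −0.17 (Csf3r), 0.79 (Fabp4), 0.87 (Itpkb), −0.17 (Ndufv1), −0.35 (Pfkfb3), 0.76 (Rps15a), 0.43 (Scd2), −0.16 (Tnfrsf1a), 0.52 (Vps13c) and 0.69 (Zbed6). Only called genes, with log2 ratios of at least 1 either way, could count as reversed. In the other 12 settings a reversal was hardly possible. The scalings moved the median log2 ratio of all genes from −0.12 to −0.40 at most. The absence of reversals there therefore says little. Depth limits the pair: the median 95% interval of a gene's ratio spans 14.5-fold.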
